A study of Mus musculus with 4 samples.

Results

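The 3 rows described are mmu-miR-199a-3p/mmu-miR-199b-3p (a joint row, since both names share 1 mature sequence), mmu-miR-199a-5p and mmu-miR-214-3p, written here without the species prefix. They were taken by name from 1809 miRNAs listed for all 4 libraries, and all 3 passed the filter on low counts that left 1797 miRNAs for testing. Small RNA was sequenced from exosome preparations, small vesicles precipitated from plasma, of C57BL/6 mice. Cells of the mouse line LLC (Lewis lung carcinoma), which forms lung tumours on transfer, had been injected into a vein 21 days before. One genotype lacked gp49B (gp49B-/-, here KO), an inhibitory receptor of myeloid cells, the other was wild type (WT), and both carried the LLC cells. Each genotype had 2 libraries, numbered pool 1 and pool 2 in the labels, each made from 4 pooled plasma samples in KO and 3 in WT. No library stands for a single mouse, so the tests below compare pools and not single mice.

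In mouse, a long noncoding transcript named Dnm3os carries the hairpins of miR-199a and miR-214 and is active in mesenchymal cells such as fibroblasts. From a hairpin the enzyme Dicer frees 2 arms, 5p and 3p, and the arm loaded into an Argonaute protein silences messenger RNAs through its seed, bases 2 to 8. In human blood miR-199a-3p is known as an abundant platelet miRNA, and miR-199a-5p and miR-214 are known for roles in fibrosis. In vesicle RNA, more vesicles of a source and more of a miRNA per vesicle cannot be told apart.

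The mature sequences are shown because the counted rows are defined by them, with the seed in capitals (RefSeq, GRCm38.p6, 5′ to 3′). All 4 member names matched a RefSeq sequence. The miR-199a-3p row can collect molecules of 3 hairpins, since miR-199a-3p and miR-199b-3p cannot be told apart, and the miR-199a-5p row those of 2. The last sequence is that of miR-761, the single other counted miRNA of those with a sequence in that table that shares the seed of miR-214-3p.
miR-199a-3p and miR-199b-3p: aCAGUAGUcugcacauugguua
miR-199a-5p: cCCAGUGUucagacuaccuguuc
miR-214-3p: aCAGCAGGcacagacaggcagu
miR-761: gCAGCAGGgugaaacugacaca
The 3 members have 3 different seeds. The first 4 bases of miR-199a-3p and miR-214-3p are the same, and 5 of their 7 seed positions match, against 3 of 7 between miR-199a-3p and miR-199a-5p. GC content was 40.9% in miR-199a-3p, 52.2% in miR-199a-5p and 59.1% in miR-214-3p.

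The hairpins show which arms share a precursor, with the mature arms in capitals, 5p first. On the plus strand of chromosome 1 Mir199a-2 (chr1:162217814-162217923) and Mir214 (chr1:162223368-162223477) lie 5444 bases apart, and their arms fall in exons of Dnm3os and, on the opposite strand, in an intron of Dnm3. Mir199a-1 (chr9:21496495-21496564, minus strand) lies opposite an intron of Dnm2, and the third source of the 3p arm, miR-199b-3p (chr2:32318524-32318545, plus strand), opposite an intron of Dnm1.
Mir199a-2: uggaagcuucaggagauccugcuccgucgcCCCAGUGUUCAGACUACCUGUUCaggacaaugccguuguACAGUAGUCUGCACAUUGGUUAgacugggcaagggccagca
Mir199a-1: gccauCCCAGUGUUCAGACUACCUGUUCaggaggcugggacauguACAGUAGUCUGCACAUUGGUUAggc
Mir214: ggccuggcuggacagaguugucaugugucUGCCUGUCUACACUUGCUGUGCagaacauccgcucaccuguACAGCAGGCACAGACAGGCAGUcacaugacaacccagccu

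Each value counts unique molecular identifiers (UMIs), short tags put on single molecules before amplification, so they need no correction for length. UMI totals were 1729201 and 3645842 in KO pools 1 and 2, against 1607218 and 3179081 in WT pools 1 and 2. Pool 1 libraries had 5.29 to 5.70 reads per UMI and pool 2 libraries 1.69 to 2.11. The lists of counted features and the lowest count above 0 (10 in both pool 1 libraries, 1 or 2 in pool 2) also went with pool number. Counts were scaled by TMM, which sets libraries level on the bulk of their miRNAs, and given as CPM, counts scaled to a fixed library size. The TMM factors differed more by pool number (in pool 1, 1.50 in KO and 1.70 in WT; in pool 2, 0.684 in KO and 0.574 in WT) than by genotype, so shares of all miRNA UMIs are given as well. No mRNA of the deleted gene was analysed here, which leaves the genotype labels without a check of their own.

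The 3p arm of miR-199a was the most abundant of the 3 in every library and stood higher in both KO libraries than in both WT libraries on the TMM scale, by 1.63-fold in the fit. It had 35508 and 33416 UMIs in KO pools 1 and 2, against 21843 and 15632 in WT pools 1 and 2. After TMM scaling these were 13823 and 13461 CPM in KO, against 8163 and 8593 CPM in WT. The 2 libraries of a genotype lay close together and the genotypes did not overlap: the means with SD (n = 2 each) were 13642 ± 256 CPM for KO and 8378 ± 304 CPM for WT. Of all 1797 miRNAs tested, 9.52% likewise had both KO values above both WT values on this scale. The row was not called by the edgeR test given below.

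Among counted miRNAs this row ranked 7 and 13 in KO pools 1 and 2, and 11 and 21 in WT. Its share of miRNA UMIs was 2.08% (exact 95% binomial interval 2.06 to 2.10%) and 0.920% (0.911 to 0.930%) in KO, against 1.38% (1.37 to 1.40%) and 0.493% (0.485 to 0.501%) in WT. By share the genotypes overlapped, since WT pool 1 lay above KO pool 2, and each pool 2 library lay below the pool 1 library of its genotype. These intervals, and those of the ratios below, cover counting error only.

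**Figure D1:**
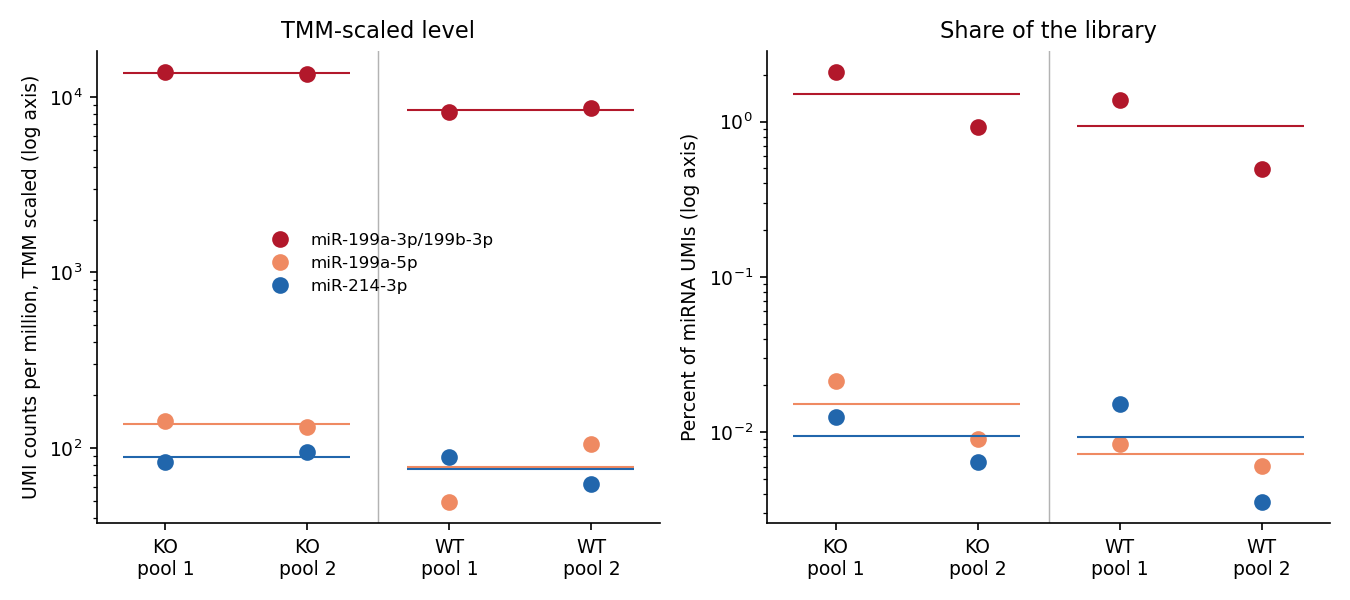
UMI counts in CPM after TMM scaling (left) and percent of miRNA UMIs (right), both on log axes, for the 3 rows in each library, with points for libraries and lines for the mean of a genotype. On the TMM scale the 3p arm of miR-199a sits at 13461 and 13823 CPM in KO, above 8163 and 8593 CPM in WT, while by share it runs from 0.493% to 2.08% and the genotypes overlap.

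Far fewer molecules of the other arm, miR-199a-5p, were counted, with 364 and 326 UMIs in KO pools 1 and 2, against 132 and 192 in WT pools 1 and 2. Scaled by TMM this was 142 and 131 CPM in KO, against 49.3 and 106 CPM in WT. Both KO libraries again lay above both WT libraries, as in 9.52% of all miRNAs tested. The WT libraries stood 2.14-fold apart, with pool 1 the low one. Means with SD (n = 2 each) were 137 ± 7.34 CPM for KO and 77.4 ± 39.7 CPM for WT. In share of miRNA UMIs the values were 0.0213% and 0.00898% in KO, against 0.00837% and 0.00606% in WT. The KO libraries thus also came out above the WT libraries by share, as in 3.28% of all miRNAs tested, if narrowly. The lowest KO share was 1.07-fold the highest WT share, and their exact 95% intervals overlapped (0.00803 to 0.0100% in KO pool 2 and 0.00700 to 0.00992% in WT pool 1).

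For miR-214-3p, made from the neighbouring hairpin, the genotypes overlapped. It had 213 and 234 UMIs in KO pools 1 and 2, against 238 and 113 in WT pools 1 and 2. In CPM this was 82.9 and 94.3 in KO, against 88.9 and 62.1 in WT, with means and SD (n = 2 each) of 88.6 ± 8.02 for KO and 75.5 ± 19.0 for WT. WT pool 2 was the low library, and WT pool 1 lay between the KO libraries. Shares of miRNA UMIs were 0.0125% and 0.00645% in KO, against 0.0151% and 0.00356% in WT.

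The main comparison asks whether these rows differ between gp49B KO and WT. None of the 3 passed edgeR's quasi-likelihood test at a Benjamini-Hochberg adjusted p under 0.05, nor did any of the 1797 miRNAs (0.0%), of which 32 (1.78%) had an unadjusted p under 0.05. Unadjusted, 27 were under 0.05 by limma-voom and 28 by DESeq2, and adjusted both called 0. The log2 fold change of miR-199a-3p/miR-199b-3p was 0.70 (SE 0.82, unadjusted p = 0.409, adjusted p = 0.99995 by edgeR). For miR-199a-5p it was 0.82 (SE 0.54, unadjusted p = 0.159, the same adjusted p), and for miR-214-3p 0.23 (SE 0.49, unadjusted p = 0.652). The median over all miRNAs tested was -0.03 and the median SE 0.47. The spread that edgeR sets against a row leans on that of miRNAs of like abundance, and the fit has 2 residual degrees of freedom. In this fit, which leaves out pool number, the 3p row had a larger SE than the other 2 although its own libraries lay closer together. With pool number as a block the SE was 0.26 for the 3p row, 0.36 for miR-199a-5p and 0.27 for miR-214-3p. Without WT pool 2 the estimate of miR-214-3p was -0.0048, and that of miR-199a-5p ran between 0.39 without WT pool 1 and 1.47 without WT pool 2. The 3p row kept an estimate of 0.69 to 0.74 with any library left out.

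Read library by library, both KO values lay above both WT values in 2 of the 3 rows on the TMM scale (miR-199a-3p/miR-199b-3p and miR-199a-5p), as they did for 171 of the 1797 miRNAs tested (9.52%), while 208 (11.6%) had both KO values below both WT values. By share of total UMIs this held for 1 of the 3, miR-199a-5p, against 3.28% of the miRNAs tested. The smallest two-sided exact permutation p that 2 against 2 libraries allow is 0.333, so a single row cannot pass by that test. On the TMM scale the lowest KO value of the 3p row was 1.57-fold the highest WT value, and by share it was 0.665-fold. A limit of 1.5-fold was chosen after the values were seen and lies under that TMM value. That the 3p row passes this limit is therefore no measure of rarity. A gap of at least 1.5-fold with TMM was found in 10 of the 1797 miRNAs tested (0.556%). Of the 352 that averaged at least 100 UMIs it was found in 2 (0.568%), this row and the skeletal muscle miRNA miR-206-3p.

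Within pool numbers, the 3p arm of miR-199a was higher in KO by a like amount in each. In pool 1 KO stood at 1.69 times WT (exact 95% interval 1.67 to 1.72), and in pool 2 at 1.57 times (1.54 to 1.60). For the 5p arm KO stood at 2.87 times WT (2.35 to 3.53) in pool 1, against 1.24 times (1.04 to 1.50) in pool 2, so both arms were higher in KO in both pools, by unequal amounts. With miR-214-3p the direction differed: its ratio was 0.932 (0.771 to 1.13) in pool 1, an interval that includes equal levels, and 1.52 (1.21 to 1.92) in pool 2. The median ratio of all miRNAs tested was 0.991 in pool 1 and 0.989 in pool 2, and 24.5% of them were higher in KO in both pools, as were 2 of the 3 rows here. By share of total UMIs 24.4% were, and the same 2 rows.

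Scaling on total UMIs moved the median ratio of all miRNAs to 0.878 in pool 1 and 1.18 in pool 2. Relative to that median the 3p row had ratios of 1.71 and 1.58 in pools 1 and 2, the 5p row 2.90 and 1.26, and miR-214-3p 0.941 and 1.53. A ratio over the median does not depend on which of these scalings is used, since each multiplies all miRNAs of a library alike. Scaled on total UMIs and not set against the median, the ratios of the 3p row were 1.50 and 1.87, with pool 2 now the larger, and those of the 5p row 2.54 and 1.48. On that scale miR-214-3p stood at 0.826 in pool 1 (exact 95% interval 0.683 to 0.998), an interval just below equal levels, and at 1.81 in pool 2.

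**Figure D2:**
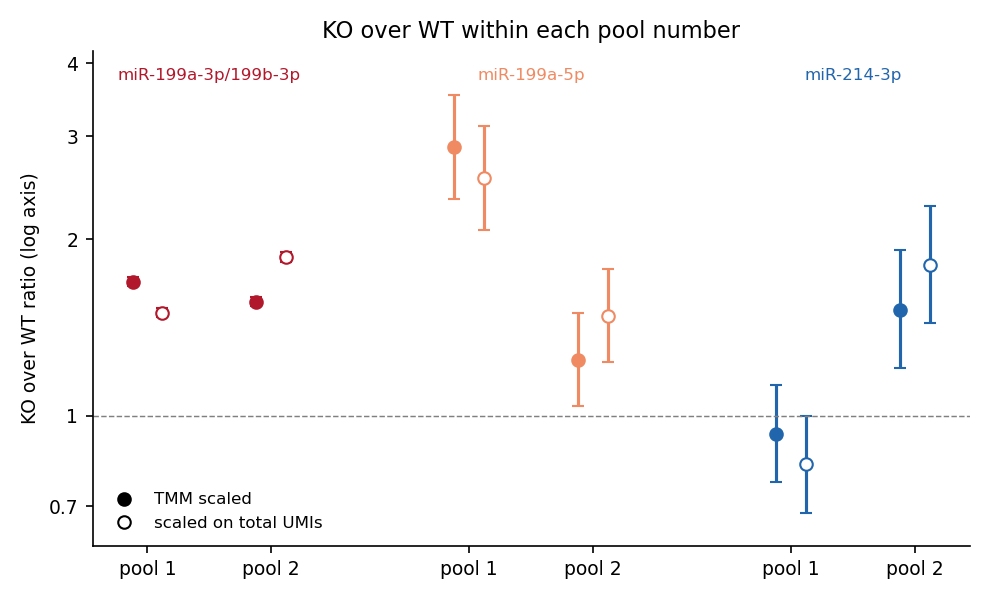
KO over WT ratio (log axis) of each row within pool 1 and pool 2, scaled by TMM (filled) or on total UMIs (open), with exact 95% intervals (counting error only) and a dashed line at equal levels. The 3p arm sits at 1.69 and 1.57 and the 5p arm at 2.87 and 1.24 with TMM, while miR-214-3p lies below the line in pool 1 (0.932) and above it in pool 2 (1.52).

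Ratios of 2 rows counted in 1 library need no scaling between libraries, and 3 such ratios were compared. The 3p arm outnumbered the 5p arm of miR-199a 97.5-fold and 103-fold in KO pools 1 and 2, against 165-fold and 81.4-fold in WT pools 1 and 2. The 2 KO libraries were alike, the WT libraries lay on either side of them, and the two-sided exact permutation p was 1. The mean log2 ratio was lower in KO by -0.22, and it was higher by 0.30 without WT pool 1. The 3p row may include molecules of miR-199b, so this may differ from the arm ratio of miR-199a alone.

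Set against the row of its chromosome 1 neighbour miR-214-3p, the 3p arm stood at 167 and 143 UMIs per UMI in KO pools 1 and 2, against 91.8 and 138 in WT pools 1 and 2. Both KO libraries lay above both WT libraries, with a mean difference of 0.45 on the log2 scale (two-sided exact permutation p = 0.333, the smallest this design allows). The pool 2 values were close, and their exact 95% intervals overlapped (126 to 163 in KO and 115 to 168 in WT), while WT pool 1 was the low library of the 4. The 5p arm over miR-214-3p gave 1.71 and 1.39 in KO, against 0.555 and 1.70 in WT (two-sided exact permutation p = 0.667). In WT pool 1 miR-214-3p was therefore the more abundant of the pair, and in the other 3 libraries miR-199a-5p was. The mean log2 difference of this ratio was 0.67 and became -0.14 without WT pool 1. Adjusted over the 3 ratios (Benjamini-Hochberg), all p-values are 1.

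**Figure D3:**
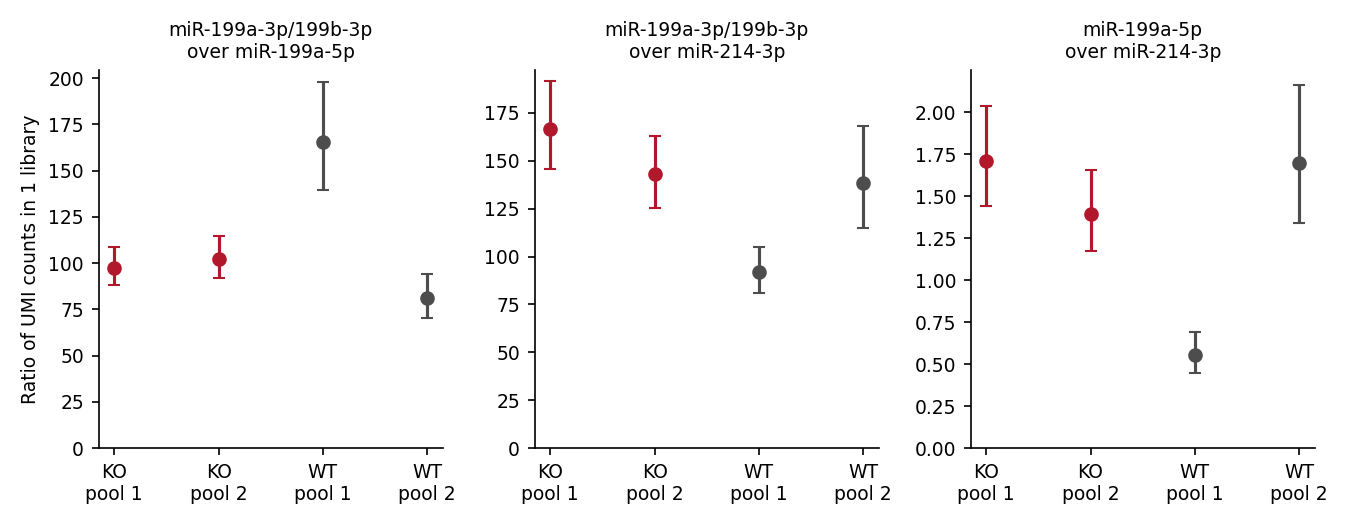
Ratio of UMI counts of 2 rows within each library, one panel per pair, with exact 95% intervals for counting error. WT pool 1 stands apart in each panel, at 165 in the first, 91.8 in the second and 0.555 in the third.

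Pool number was then set beside genotype, since it is the other label that divides the libraries. On the TMM scale none of the 3 rows passed between pool 2 and pool 1 by edgeR's quasi-likelihood test, which called 211 of 1797 miRNAs (11.7%), 131 (7.29%) higher and 80 (4.45%) lower in pool 2. The 3p row had a log2 fold change of 0.0045 for pool 2 over pool 1 (SE 0.36, adjusted p = 0.996), the 5p row 0.31 (SE 0.42, adjusted p = 0.667) and miR-214-3p -0.13 (SE 0.28, adjusted p = 0.800). Pool 2 over pool 1 ratios of CPM within a genotype were 0.974 in KO and 1.05 in WT for the 3p row. They were 0.927 in KO and 2.14 in WT for the 5p row, and 1.14 in KO and 0.698 in WT for miR-214-3p. Without KO pool 1 the 5p row was called higher in pool 2 by edgeR (log2 fold change 1.26, adjusted p = 0.0139), in a fit that called 248 of 1804 miRNAs (13.7%). Without WT pool 1 its estimate was -0.27 and was not called.

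The pool comparison depends on the scaling. Scaled on total UMIs, the edgeR test called 1394 miRNAs between pools (77.6%), the median log2 fold change of all miRNAs was -1.37, and all 3 rows were called lower in pool 2, at -1.29 for the 3p row, -0.98 for the 5p row and -1.46 for miR-214-3p (adjusted p = 0.00339, 0.0240 and 0.000954). Relative to the median of all miRNAs these were 0.08, 0.39 and -0.09, so the members moved with the bulk of the miRNAs.

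**Figure D4:**
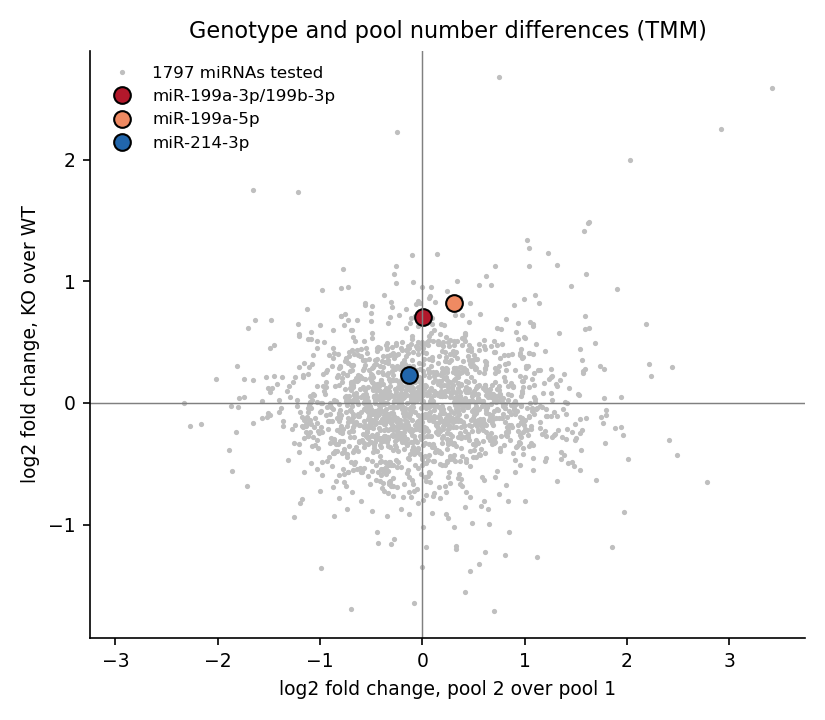
Log2 fold change of KO over WT (y axis) against that of pool 2 over pool 1 (x axis) on the TMM scale, with grey points for the 1797 miRNAs tested and large points for the 3 rows. The 3p row lies at 0.70 for genotype and 0.0045 for pool number, and the other 2 lie within 0.31 of 0 for pool number.

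The remaining arms of these hairpins were counted at low levels. The passenger arm miR-214-5p had 78 and 43 UMIs in KO pools 1 and 2, against 71 and 26 in WT pools 1 and 2, and miR-199b-5p, the 5p arm of the chromosome 2 hairpin, had 56 and 78 in KO, against 43 and 43 in WT. KO over WT ratios were 1.14 (0.819 to 1.60) and 1.21 (0.728 to 2.05) in pools 1 and 2 for miR-214-5p. For miR-199b-5p they were 1.36 (0.896 to 2.07) and 1.33 (0.905 to 1.98). All 4 estimates were above equal levels and all 4 intervals include it with TMM, while on total UMIs miR-199b-5p stood at 1.58 (1.08 to 2.36) in pool 2, and neither arm passed the edgeR test (adjusted p = 0.99995 each). Molecules of miR-214-3p outnumbered those of miR-214-5p 2.73-fold and 5.44-fold in KO, against 3.35-fold and 4.35-fold in WT, with the higher ratio in pool 2 in both genotypes. Molecules of miR-199a-5p outnumbered those of miR-199b-5p 6.50-fold and 4.18-fold in KO, against 3.07-fold and 4.47-fold in WT. The seed sharer miR-761 had 48 and 69 UMIs in KO, against 32 and 79 in WT.

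By root mean square difference between log2 CPM profiles centred on their own mean over the 4 libraries, among 349 other miRNAs that averaged at least 100 UMIs, the profiles nearest to the mean of the 3 rows were miR-134-5p (0.09), let-7k (0.10), miR-381-3p (0.12), miR-300-3p (0.13) and miR-139-5p (0.15), where the median of the 349 was 0.48. The 3 rows themselves lay 0.07 (3p arm), 0.34 (5p arm) and 0.32 (miR-214-3p) from that mean. Since the mean is made of these rows, their distances to it cannot be set against that median. The nearest profiles to the 3p arm alone were miR-381-3p (0.13), let-7k (0.13) and miR-300-3p (0.15). For miR-199a-5p they were miR-379-5p (0.11), miR-196a-5p (0.16) and miR-10b-5p (0.18), and for miR-214-3p they were miR-7648-5p (0.11), miR-7081-5p (0.12) and miR-668-3p (0.13). The arms of miR-199a were 0.37 from each other. Between miR-199a-5p, encoded on chromosomes 1 and 9, and miR-214-3p, encoded on chromosome 1, the difference was 0.67. The median of the 349 was 0.53 from the 3p arm, 0.62 from miR-199a-5p and 0.49 from miR-214-3p.

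**Figure D5:**
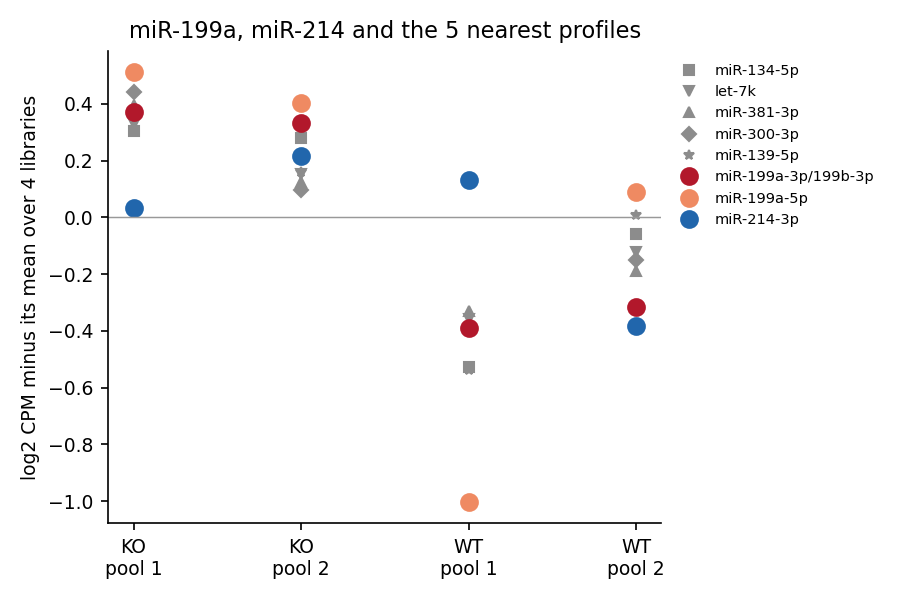
Log2 CPM minus its mean over the 4 libraries (y axis) by library, for the 3 rows (coloured) and the 5 miRNAs nearest to their mean (grey). The widest split among the 3 rows is in WT pool 1, where miR-199a-5p lies at -1.0, the 3p row at -0.39 and miR-214-3p at 0.13.

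Lists of miRNAs known from the cell types that could feed plasma vesicles were set beside these rows. Of 12 platelet miRNAs 0 were called in either direction, and with TMM 3 were higher in KO in both pools (24.5% of all miRNAs tested were), or 6 by share of total UMIs (24.4% of all). Their median KO over WT ratio with TMM was 1.67 in pool 1 and 0.876 in pool 2. Together they took 8.75% and 3.37% of miRNA UMIs in KO pools 1 and 2, against 5.43% and 3.23% in WT. The platelet and neutrophil miRNA miR-223-3p, the most abundant of the list, had ratios of 2.79 and 0.717. Next in abundance, miR-21a-5p had 1.37 and 1.16, miR-191-5p 1.12 and 0.730, and miR-24-3p 1.69 and 1.25.

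Among 12 stromal and smooth muscle miRNAs 0 were called, and with TMM 4 had the higher level in KO in each pool, or 8 by share of total UMIs, against the same 24.5% and 24.4% of all miRNAs. The list had median ratios of 1.76 and 0.901 and summed shares of 3.60% and 1.66% in KO, against 2.39% and 1.72% in WT. The most abundant of that list, miR-29a-3p, had ratios of 1.17 and 0.933. Next in abundance, miR-125b-5p had 2.28 and 0.855, miR-143-3p, a smooth muscle miRNA, 1.73 and 0.524, and miR-27b-3p 1.56 and 1.11. In pool 2 each of the 3 rows, at 1.24 to 1.57, stood above the medians of all 6 lists examined, which ran from 0.783 to 0.929. Single miRNAs of the lists ran from 0.479 (miR-145a-5p) to 2.03 (miR-206-3p) in pool 2, so the 3 rows lay within the range of list members. In pool 1 the list medians ran from 0.598 for hepatocyte to 6.34 for muscle miRNAs. There the 3p row (1.69) lay above the platelet, red blood cell and hepatocyte medians and below the stromal, leukocyte and muscle ones. In that pool miR-199a-5p (2.87) lay above all but the muscle median, and miR-214-3p (0.932) above only the red blood cell and hepatocyte medians. This comparison with the lists was made as a description, without a test.

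Of the other lists, 9 red blood cell miRNAs took 38.3% and 47.6% of UMIs in KO, against 47.2% and 44.5% in WT, with median ratios of 0.847 and 0.891. For 7 leukocyte miRNAs the shares were 3.25% and 1.62% in KO, against 2.15% and 1.28% in WT, with median ratios of 1.96 and 0.929. With TMM 2 of these 7 were higher in KO in both pools, and by share of total UMIs 7 of 7, against the 24.5% and 24.4% of all miRNAs. The 7 muscle miRNAs took 3.74% and 0.693% in KO, against 0.416% and 0.430% in WT, and the 5 hepatocyte miRNAs 7.49% and 20.3% in KO, against 11.4% and 27.3% in WT. With TMM 6 of 9 red blood cell, 5 of 5 hepatocyte and 1 of 7 muscle miRNAs were lower in KO in both pools. On the platelet, stromal and leukocyte lists 0 were. The share of all miRNAs lower in both pools was not counted. No miRNA of the 6 lists was at 0 UMIs in any library, and 0 were called. The part of platelets, leukocytes, muscle or red blood cells in the values of miR-199a and miR-214 was not tested.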

How the data were processed

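The authors deposited whole-number UMI counts and read counts per mature miRNA or piRNA for all 4 libraries, with no normalization, and a log2 value per library. Per the labels' protocols, plasma was separated from EDTA blood, exosomes were precipitated with ExoQuick, and the QIAseq miRNA kit was used for libraries. FastQC 0.11.9 and GRCm38 are named per the submitters' processing notes. The software for alignment and counting was not given in the sources used here. The deposited log2 values are log2 UMI counts shifted by 1 constant in each library, and those of pool 2 were assigned to libraries by file, since a column name there is that of WT pool 1, and their UMI counts were identical to the joint table.

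The 1809 miRNAs listed for both pool numbers were used, and miRNAs listed in 1 pool only and piRNAs were left out. Genotypes, and separately pool numbers, were compared with edgeR 4.0.16 in R 4.3.3 (filtering by expression, TMM, two-sided quasi-likelihood F-test, Benjamini-Hochberg adjustment), fitted on all miRNAs. The code was also run on simulated counts. These had the same spread for every miRNA and no pool difference, so that run does not show how the test behaves on these libraries. SEs were taken as the log2 fold change over the square root of F. Ratios within a pool carry exact binomial 95% intervals. Profiles were compared on log2 of CPM plus 0.5. The labels do not tie equal pool numbers to shared handling, so pool number as a block is an alternative, as are other scalings, no filter, limma 3.58.1 (voom, and the authors' log2 values), DESeq2 1.42.0, read counts and each library left out. Named miRNAs are the 3 rows, their other arms, seed sharers, the nearest profiles and some of the most abundant of each list. Members and lists were chosen with earlier results of these data known. Python 3.11.15, SciPy 1.17.1 and pandas 2.3.3 made the tables, and loci were read against GENCODE M21.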

Additional observations from a re-analysis of the deposited data

Results flagged for a closer look

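The KO over WT ratio of miR-214-3p went opposite ways in the 2 pool numbers, at 0.932 in pool 1 and 1.52 in pool 2. The ratio of the 3p to the 5p row of miR-199a, KO over WT, was 0.590 in pool 1 and 1.26 in pool 2, so it also went opposite ways. For miR-199a-5p over miR-214-3p the same comparison gave 3.08 in pool 1 and 0.820 in pool 2. With 1 library per genotype in a pool, none of these differences between pools was tested. WT pool 1 was the library farthest from the other 3 in both of these row ratios.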

How the results depend on the processing

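Each genotype result was recomputed with RLE size factors, total UMI counts, no filter, limma-voom, DESeq2, read counts and the authors' log2 values, and in all of these the 3 rows kept a positive estimate and 0 miRNAs were called. Scaled on total UMI counts, the pool comparison called 1394 miRNAs (211 with TMM), with log2 fold changes of -1.29, -0.98 and -1.46 for the 3p row, miR-199a-5p and miR-214-3p. That scaling gave KO over WT ratios of the 3p row of 1.50 in pool 1 and 1.87 in pool 2. It left 1 row, against 2 with TMM, with both KO libraries above both WT libraries. Of all miRNAs tested this held for 3.28% by share of total UMIs and 9.52% with TMM. The alternatives to this count were added after the data were seen. Between pools DESeq2 called 132 miRNAs and the read counts 131, with a log2 fold change of -0.15 for the 3p row from reads. The ratio of the 3p row was 1.60 in pool 2 from reads and 1.73 in pool 1 with RLE. The cause of these changes was not tested.

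With each library left out in turn, the lone library of a group is assumed to vary like the other group. The genotype comparison called 0 to 3 miRNAs, 3 without KO pool 2 and 2 without WT pool 2. Genotype log2 fold changes ran from 0.69 to 0.74 for the 3p row, 0.39 to 1.47 for miR-199a-5p and -0.0048 to 0.53 for miR-214-3p. The pool comparison called 195 to 248, with log2 fold changes of -0.35 to 0.43, -0.27 to 1.26 and -0.47 to 0.14 for the 3 rows in that order. Mean log2 differences of the ratios within a library ran from -0.73 to 0.30 for the 3p over the 5p row, 0.16 to 0.75 for the 3p row over miR-214-3p and -0.14 to 1.48 for miR-199a-5p over miR-214-3p.

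With pool number as a replicate block, which leaves 1 residual degree of freedom, edgeR called 0 miRNAs (78 at an unadjusted p under 0.05, lowest adjusted p = 0.790), and the block changed no call. Log2 fold changes were 0.70 for the 3p row (unadjusted p = 0.0392, adjusted p = 0.898), 0.91 for miR-199a-5p (0.0484 and 0.898) and 0.24 for miR-214-3p (0.414 and 0.925). Deviations from the genotype mean correlated at 0.527 between libraries of the same pool number, across 1797 miRNAs. The labels give the 2 pairs only a number in common, while reads per UMI, the counted features and the lowest count above 0 also went with it.

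Counts of 113 to 364 UMIs for miR-199a-5p and miR-214-3p limit their ratios more than the 15632 or more of the 3p row limit its own, and 2 pools per genotype limit every test.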

Other observations

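Molecules of the 3p row were read more often than the average of their library in 4 of 4 libraries, at 6.64 and 2.33 reads per UMI in KO pools 1 and 2, against library averages of 5.70 and 2.11, and at 6.30 and 1.79 in WT pools 1 and 2, against averages of 5.29 and 1.69. Molecules of miR-199a-5p were also above the average in each library, at 6.29 and 2.23 in KO pools 1 and 2 and 6.08 and 1.87 in WT. For miR-214-3p the values were 5.95 and 2.07 in KO and 5.86 and 1.65 in WT, so below the average in both pool 2 libraries and above it in both pool 1 libraries. The share of all miRNAs that lay above the average was not counted.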
